A study of Mus musculus with 6 samples.

Results

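Tight junction scaffold and polarity genes were followed in the epithelium and the mesenchyme of the fetal mouse small intestine. The 9 genes are Tjp1, Tjp3 and Cgn, which encode proteins of the cytoplasmic plaque of the tight junction, Ocln, Marveld2, Marveld3 and F11r, which encode its membrane proteins, and Crb3 and Pard6b, which encode proteins of the apical polarity complexes. They were taken by symbol from the annotation of the array, which gave 17 of the 45037 probe sets tested and 9 of the 18161 genes these represent. A probe set is a group of short oligonucleotides that together report 1 transcript or a family of transcripts. The samples were epithelium (pools A, B and C) and mesenchyme (pools A, B and C) of C57BL/6 embryos at E18.5 (embryonic day), each pool holding tissue from 3 embryos and each hybridised to its own Affymetrix mouse genome expression array. Both compartments came from whole small intestines, opened lengthwise and held at 4 °C for 9 hours in a cell recovery solution that loosens the epithelial sheet. The 3 arrays of a tissue carry the RNA pools, out of 6, that RT-PCR found least mixed, with Vil1 and Prkg2 as epithelial and Vim, Madcam1 and Actg2 as mesenchymal transcripts. No treatment or mutation was involved, and the mesenchyme was everything that remained of the gut wall after the epithelium had come off, including muscle, vessels and nerves.

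Tight junctions seal the space between neighbouring epithelial cells near their apical border, and in the intestine they set how much water, ions and larger molecules can pass between cells. Membrane proteins form the strands of the junction, and scaffold proteins of the plaque tie the strands to the actin cytoskeleton. The Crumbs and Par complexes mark the apical side of the cell and position the junction below it. Endothelial and mesothelial cells, both of which are present in the gut wall, also build tight junctions and use part of the same protein set.

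Of the 9 genes, 7 were higher in the epithelium than in the mesenchyme (Tjp3, Cgn, Ocln, Marveld2, Marveld3, Crb3 and Pard6b), and Tjp1 and F11r were not. The gene call used the brightest probe set of each gene, and it required an adjusted p under 0.05 from limma with Benjamini-Hochberg adjustment and a log2 difference of at least 1, which is a 2-fold difference. The background of that call was 8.19% of all genes for higher in the epithelium. The median log2 difference of the 9 genes, epithelium minus mesenchyme, was 1.97, against -0.17 over all 18161 genes. None of the 9 was called higher in the mesenchyme, a call that 15.9% of all genes received in the same limma fit, and at an unadjusted p under 0.05 only Tjp1 of the 9 lay that way. Among the 17 probe sets, 12 were called higher in the epithelium, where 5.98% of all probe sets were, and 5 were not called. In 13 of the 17, all 3 epithelial arrays lay above all 3 mesenchymal arrays, an order found in 12.4% of all probe sets. In 1 probe set, that of Tjp1, all mesenchymal arrays lay above all epithelial ones. Over all 45037 probe sets, the tissues did not overlap in 18798, of which 5581 were higher in the epithelium and the rest in the mesenchyme.

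The levels are deposited log2 values, so that 1 unit is a 2-fold step. An error beside a level is the SD over 3 arrays, and beside a difference (epithelial minus mesenchymal mean) the standard error that limma gives. Array medians were 8.1 to 8.6 in the epithelium, against 8.5 to 8.7 in the mesenchyme, and precision is limited by having 3 arrays per tissue. Correlations over all probe sets were 0.978 to 0.984 within a tissue and 0.773 to 0.813 between tissues. Of the cell type markers, 9 of 9 epithelial genes were called higher in the epithelium, where 8.19% of all genes were. In the mesenchyme, 7 of 7 stromal, 6 of 6 smooth muscle and 8 of 8 endothelial genes were called higher, against 15.9% of all genes. Each of these lists includes a gene of the RT-PCR selection of the pools, so the counts are no independent check of the separation. The epithelial markers were not absent from the mesenchyme: their levels there were 2.01% to 10.9% of their epithelial levels, with a median of 5.44%. In tissue pools, fewer cells of a type and less RNA per cell cannot be told apart.

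**Figure D1:**
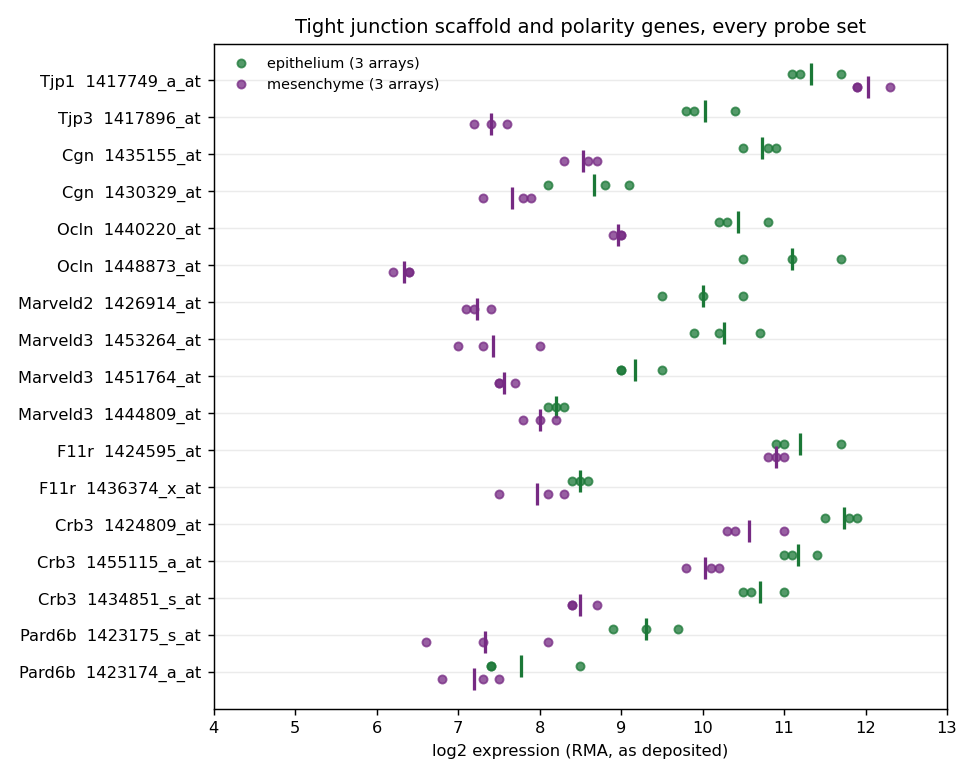
Log2 expression of each of the 17 probe sets of the 9 genes, with a point for each epithelial (green) and mesenchymal (purple) array and a bar at the mean of 3. The largest gap between the tissues was at the Ocln probe set 1448873_at, with a mean of 11.1 in the epithelium, against 6.33 in the mesenchyme, and the Tjp1 points lay further right in the mesenchyme.

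The promoters of these genes were read from RefSeq windows on the mouse build GRCm38.p6, each covering 250 bases before and 50 bases after a transcription start. Windows were found for 8 of the 9 genes, all but Marveld3, and there were 12 of them because some genes have several starts, those of Ocln, Marveld2 and Crb3 in overlapping windows. The sequences were searched on both strands for the E-box CACCTG, the letters bound by the repressors of the Snail and Zeb families, and for AACCNGTT, the letters bound by Grainyhead-like factors, which activate epithelial junction genes. The E-box and Grainyhead-like matches shared no bases. The E-box was found in 6 of the 8 genes and in 10 of the 12 windows, whereas 20.2% of all 32851 promoter windows in the table held it. Crb3 is shown first because it had 4 E-boxes in a window, a number reached by 18 of all windows (0.0548%), both Crb3 windows among them. Pard6b and the second Ocln start are shown for their 2 E-boxes each (at least 2 in 2.88% of all windows), Cgn for the only AACCNGTT match among the genes (2.09% of all windows), and Tjp1, the scaffold gene with the highest mesenchymal level relative to its epithelial level, for the absence of both motifs. Capitals mark the matches, and each sequence runs 5′ to 3′ on the strand of its gene.
Crb3, chr17:57061951-57062250, plus strand: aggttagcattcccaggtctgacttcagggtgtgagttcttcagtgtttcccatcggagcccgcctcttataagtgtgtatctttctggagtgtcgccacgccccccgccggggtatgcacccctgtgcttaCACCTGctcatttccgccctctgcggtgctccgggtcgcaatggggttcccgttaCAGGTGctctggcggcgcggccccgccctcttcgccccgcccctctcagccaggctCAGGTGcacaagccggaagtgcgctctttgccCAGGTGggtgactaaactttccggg
Pard6b, chr2:168080754-168081053, plus strand: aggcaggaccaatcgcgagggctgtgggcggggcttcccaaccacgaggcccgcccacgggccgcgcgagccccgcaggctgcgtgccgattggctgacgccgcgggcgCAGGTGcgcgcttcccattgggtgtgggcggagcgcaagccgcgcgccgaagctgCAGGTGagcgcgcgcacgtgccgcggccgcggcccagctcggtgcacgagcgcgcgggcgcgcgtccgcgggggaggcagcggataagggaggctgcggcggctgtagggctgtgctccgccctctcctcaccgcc
Ocln, second start, chr13:100552449-100552748, minus strand: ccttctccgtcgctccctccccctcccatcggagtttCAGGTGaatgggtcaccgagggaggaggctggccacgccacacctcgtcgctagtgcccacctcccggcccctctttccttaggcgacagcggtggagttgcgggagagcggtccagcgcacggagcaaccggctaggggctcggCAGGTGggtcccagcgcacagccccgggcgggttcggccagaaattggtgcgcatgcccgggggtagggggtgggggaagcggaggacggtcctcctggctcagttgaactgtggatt
Cgn, chr3:94786433-94786732, minus strand: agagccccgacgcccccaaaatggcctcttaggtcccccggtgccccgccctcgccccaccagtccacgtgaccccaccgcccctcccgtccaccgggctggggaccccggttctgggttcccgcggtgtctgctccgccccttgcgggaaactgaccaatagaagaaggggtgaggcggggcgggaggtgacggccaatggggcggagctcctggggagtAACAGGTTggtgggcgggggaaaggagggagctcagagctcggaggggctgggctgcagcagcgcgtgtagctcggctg
Tjp1, chr7:65371195-65371494, minus strand: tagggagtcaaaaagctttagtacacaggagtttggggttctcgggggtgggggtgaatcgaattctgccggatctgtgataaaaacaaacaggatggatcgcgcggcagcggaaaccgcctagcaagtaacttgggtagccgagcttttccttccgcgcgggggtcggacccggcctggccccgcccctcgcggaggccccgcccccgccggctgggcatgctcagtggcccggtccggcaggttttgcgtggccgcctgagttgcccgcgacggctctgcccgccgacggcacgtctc
The 4 E-boxes of Crb3 began 118, 63 and 7 bases before the start and 25 bases after it. Those of Pard6b began 141 and 86 bases before the start, and those at the second Ocln start 213 and 68 bases before it. The AACCNGTT match of Cgn began 29 bases before its start. Tjp3, Marveld2 and F11r each had 1 E-box per window, F11r among them although it was not called between the tissues. Tjp1 and Cgn had no E-box, although Cgn was called higher in the epithelium. The share of G and C was 45.3% in the first Tjp3 window and up to 77.0% (Pard6b) in the others, with a median of 52.7% over all windows of the table. The GC box GGGCGG on either strand was found in 7 of the 8 genes, against 35.7% of all windows. A match describes the letters of the window and was not tested as a binding site.

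Among the scaffolds of the plaque, Tjp3 and Cgn were higher in the epithelium and Tjp1 was not. Tjp3 encodes ZO-3, a scaffold restricted largely to epithelia, and its probe set 1417896_at read 9.9, 10.4 and 9.8 in the epithelial arrays A, B and C, against 7.4, 7.2 and 7.6 in the mesenchymal arrays A, B and C. The groups were 2.2 units apart at their nearest arrays. The difference was 2.63 ± 0.23 (adjusted p = 6.67e-12 by limma), a fold of 6.20.

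Cgn encodes cingulin, which links ZO proteins to actomyosin, and it had a pair of probe sets. The brighter, 1435155_at, read 10.5, 10.9 and 10.8 in the epithelium, against 8.7, 8.3 and 8.6 in the mesenchyme, with a difference of 2.20 ± 0.23 (adjusted p = 3.68e-10 by limma). All epithelial arrays exceeded all mesenchymal ones. The dimmer, 1430329_at, read 8.1, 8.8 and 9.1 in the epithelium, against 7.3, 7.8 and 7.9 in the mesenchyme. Here the nearest arrays of the groups were only 0.2 apart, and the difference was 1.00 ± 0.25 (adjusted p = 0.00148), which is exactly the 2-fold limit. That call ended when any of epithelium B, epithelium C or mesenchyme A was left out, with differences of 0.93, 0.78 and 0.82, whereas the call of the brighter probe set was kept in all 3 cases.

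Tjp1 encodes ZO-1, the scaffold that binds occludin and the JAM proteins and is used by endothelia and by other cadherin-bearing cells as well as by epithelia. Its probe set 1417749_a_at read 11.1, 11.7 and 11.2 in the epithelium, against 12.3, 11.9 and 11.9 in the mesenchyme. Every mesenchymal array was above every epithelial one, with a gap of 0.2 between the nearest. The difference was -0.70 ± 0.24 (adjusted p = 0.0170 by limma), under the 2-fold limit, so it was not called. Over 16 alternatives in scaling, filtering and arrays used, the difference lay between -0.96 and -0.38 and the adjusted p between 0.00147 and 0.121.

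Of the membrane proteins, Ocln, Marveld2 and Marveld3, which share the 4-pass MARVEL fold, were higher in the epithelium, while F11r was not called. Ocln encodes occludin, found along the whole junction, and its probe set 1448873_at read 11.1, 11.7 and 10.5 in the epithelium, against 6.2, 6.4 and 6.4 in the mesenchyme. The mesenchymal values stood close to the average of 15 bacterial control probe sets with no mouse target, which was 5.91 to 6.06 on the epithelial and 5.95 to 6.24 on the mesenchymal arrays. The difference was 4.77 ± 0.25 (adjusted p = 3.80e-18 by limma), a fold of 27.2, and the mesenchymal level was 3.67% of the epithelial one. The second Ocln probe set, 1440220_at, read 10.2, 10.8 and 10.3 in the epithelium, against 9.0, 8.9 and 9.0 in the mesenchyme. It separated the tissues without overlap as well, but its difference was 1.47 ± 0.23 (adjusted p = 2.20e-06). Because it was brighter over the 6 arrays, it stood for Ocln in the gene comparison, and the gene value is therefore the smaller of the pair.

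Marveld2 encodes tricellulin, which concentrates where 3 cells meet, and its probe set 1426914_at read 9.5, 10.5 and 10.0 in the epithelium, against 7.1, 7.2 and 7.4 in the mesenchyme. The epithelial arrays spread over 1 unit, and the lowest of them was 2.1 units above the highest mesenchymal array. The difference was 2.77 ± 0.24 (adjusted p = 5.56e-12 by limma), a fold of 6.81. Ocln and Marveld2 both lie on chromosome 13.

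Marveld3 encodes the remaining protein of the family, and its 3 probe sets gave different sizes. The brightest, 1453264_at, read 9.9, 10.7 and 10.2 in the epithelium, against 7.0, 7.3 and 8.0 in the mesenchyme, with a difference of 2.83 ± 0.26 (adjusted p = 9.73e-12 by limma). Mesenchyme C was the highest of its group, 1 unit above mesenchyme A, and still 1.9 units below the lowest epithelial array. The probe set 1451764_at read 9.0, 9.5 and 9.0 in the epithelium, against 7.5, 7.5 and 7.7 in the mesenchyme, with a difference of 1.60 ± 0.23 (adjusted p = 4.09e-07). The third, 1444809_at, read 8.1, 8.2 and 8.3 in the epithelium, against 8.0, 7.8 and 8.2 in the mesenchyme. These arrays overlapped, and the difference of 0.20 ± 0.23 was not called (adjusted p = 0.546).

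F11r encodes JAM-A, an adhesion protein of the immunoglobulin family that epithelia, endothelia, platelets and leukocytes share. Its probe set 1424595_at read 11, 11.7 and 10.9 in the epithelium, against 11, 10.8 and 10.9 in the mesenchyme. Epithelium B stood above all other arrays, and the remaining 5 lay within 0.2 of each other. The difference was 0.30 ± 0.24 (adjusted p = 0.357 by limma). The dimmer 1436374_x_at, whose suffix marks probes that may also match other sequences, read 8.6, 8.4 and 8.5 in the epithelium, against 7.5, 8.1 and 8.3 in the mesenchyme. The groups did not overlap there, by a gap of 0.1, and the difference of 0.53 ± 0.24 was not called (adjusted p = 0.0769).

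The summed level of 8 endothelial markers was 11.05 to 11.37 log2 units on the epithelial arrays and 14.40 to 14.65 on the mesenchymal arrays, and that of 5 mesothelial markers was 10.90 to 11.45 on the epithelial arrays and 12.09 to 12.15 on the mesenchymal arrays. The mesothelial sum was carried by Upk3b, which was not called (-0.17), whereas the other 4 markers differed by -3.43 to -1.10. Of 5 immune markers, 4 were called higher in the mesenchyme, with differences of -4.8 to -1.5. Their summed level of 13.51 to 13.91 on the epithelial and 14.23 to 14.32 on the mesenchymal arrays was carried by the fifth, Csf1r, which was not called (0.40). The part of these cells in the mesenchymal levels of Tjp1 and F11r was not tested. For the epithelial markers the summed level was 16.51 to 16.85 in the epithelium, against 12.12 to 12.87 in the mesenchyme. Of the 17 probe sets, 16 had a mesenchymal level that was a larger percent of the epithelial level than the 10.9% reached by the highest of the 9 epithelial markers, and 11 of these were called higher in the epithelium. The exception was Ocln 1448873_at, within the range of the markers. By construction, any probe set with a small difference or a higher mesenchymal level also exceeds 10.9%. The share over all probe sets was not computed, so the count of 16 is only a description. A mesenchymal level near background overstates such a percent, and the part of remaining epithelium in the mesenchymal levels was not tested.

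Both polarity genes were called higher in the epithelium by their brightest probe sets, Pard6b by only 1 of its 2 probe sets. Crb3 encodes the Crumbs protein of most epithelia, which recruits Pals1 and Patj to the apical membrane, and all 3 of its probe sets were called. The brightest, 1424809_at, read 11.5, 11.9 and 11.8 in the epithelium, against 10.3, 10.4 and 11 in the mesenchyme, with a difference of 1.17 ± 0.24 (adjusted p = 0.000121 by limma). Mesenchyme C was the array nearest to the epithelium, 0.5 units away. The probe set 1455115_a_at read 11, 11.4 and 11.1 in the epithelium, against 9.8, 10.2 and 10.1 in the mesenchyme, with a difference of 1.13 ± 0.23 (adjusted p = 0.000113). The third, 1434851_s_at, read 10.5, 11 and 10.6 in the epithelium, against 8.4, 8.4 and 8.7 in the mesenchyme. It gave the widest separation of the 3, with a difference of 2.20 ± 0.23 (adjusted p = 4.11e-10), and its suffix marks probes shared by several transcripts. When arrays were centred on spike-in controls, the first pair lost the call with differences of 0.91 and 0.87. The spike-in mean was 9.80 in mesenchyme B against 10.56 to 10.77 in the other 5 arrays, and no call of the 17 probe sets was lost once mesenchyme B was left out of that setting.

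Pard6b encodes a Par6 protein, the adaptor that joins atypical protein kinase C to Cdc42 and Par3. Its brighter probe set, 1423175_s_at, read 8.9, 9.7 and 9.3 in the epithelium, against 8.1, 6.6 and 7.3 in the mesenchyme. The mesenchymal arrays spread over 1.5 units, the widest spread in either tissue among the 17 probe sets, with mesenchyme A the highest. The difference was 1.97 ± 0.28 (adjusted p = 2.55e-07 by limma), and the suffix again marks probes shared by several transcripts. The other probe set, 1423174_a_at, read 7.4, 8.5 and 7.4 in the epithelium, against 7.5, 6.8 and 7.3 in the mesenchyme. Epithelium B alone exceeded all mesenchymal arrays, and the difference of 0.57 ± 0.26 was not called (adjusted p = 0.0913). When probe sets with an s, x or a suffix were left out, no probe set of Pard6b remained.

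**Figure D2:**
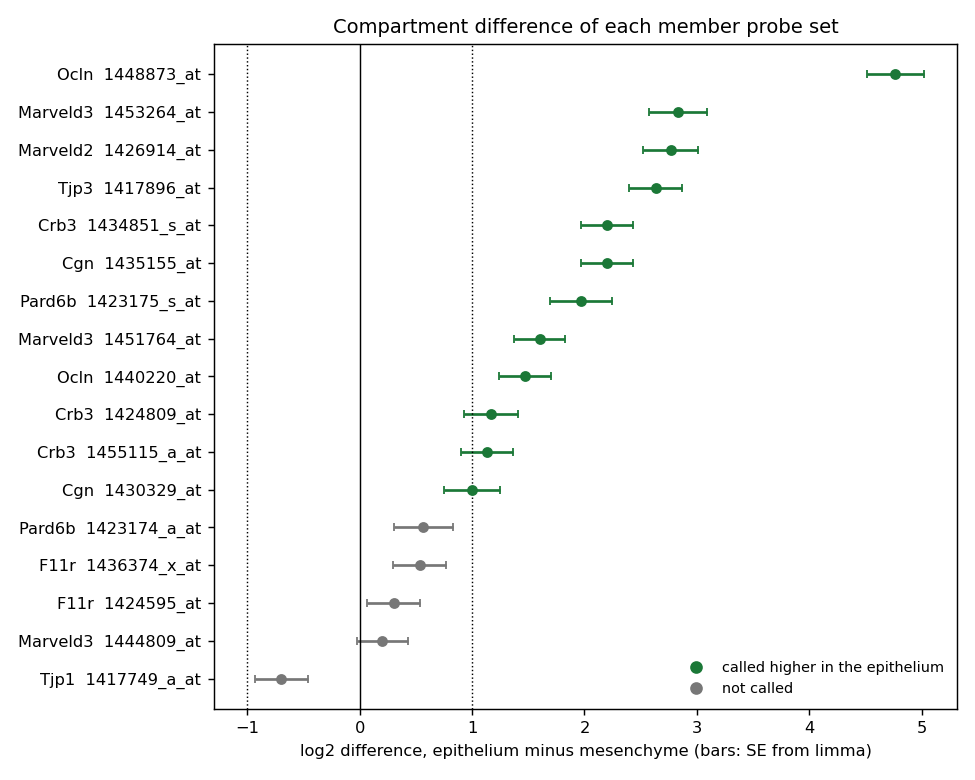
Log2 difference, epithelium minus mesenchyme, of the 17 probe sets ordered by size, with bars of 1 standard error (limma, n = 3 per tissue) and dotted lines at 2-fold. The differences ran from -0.70 for Tjp1 to 4.77 for Ocln 1448873_at, and 12 reached the upper line with an adjusted p under 0.05.

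Probe sets of the same gene had differences of the same sign in the deposited values, but of different sizes; under spike-in centring, Marveld3 1444809_at turned to -0.06. Over the 10 pairs of probe sets of the same gene, the difference between the pair was compared between tissues by two-sided exact permutation tests, for which 3 against 3 arrays allow no p under 0.1. In Ocln, the value of 1440220_at minus that of 1448873_at was -0.9, -0.9 and -0.2 in the epithelium, against 2.8, 2.5 and 2.6 in the mesenchyme, which is a shift of -3.30 between the tissues (exact p = 0.1, adjusted p = 0.125 over the 10 pairs). The tissues did not overlap in 8 of the 10 pairs, all except the F11r pair and 1 of the 3 Crb3 pairs. Pairs within Marveld3 and within Crb3 share probe sets, and the share over pairs of all other genes was not computed. The count is therefore only a description. In Pard6b, the called minus the uncalled probe set was 1.5, 1.2 and 1.9 in the epithelium, against 0.6, -0.2 and 0.0 in the mesenchyme. In Marveld3, 1453264_at minus 1444809_at was 1.8, 2.5 and 1.9 in the epithelium, against -1.0, -0.5 and -0.2 in the mesenchyme. For Ocln, Cgn, Marveld3, Crb3 and Pard6b, the size of the difference on these arrays thus varied with the probe set read, although no adjusted p of the exact tests was under 0.125.

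The balance between the 9 genes on each array was followed as the value of a gene minus the mean of the other 8, which removes a shift common to the array. Tjp1 stood 0.925, 0.875 and 0.812 above the others in the epithelium, against 3.73, 3.56 and 3.17 in the mesenchyme. F11r stood 0.812, 0.875 and 0.475 above them in the epithelium, against 2.26, 2.33 and 2.05 in the mesenchyme. The shifts between tissues, -2.62 for Tjp1 and -1.49 for F11r, balance positive ones of Marveld3 (1.36), Marveld2 (1.28), Tjp3 (1.13), Cgn (0.65) and Pard6b (0.38), since the 9 shifts sum to 0 by construction (Ocln -0.18, Crb3 -0.52). They restate the order of the differences given above, including that of F11r, whose own difference was 0.30, and the exact p, which was 0.1 at its smallest (0.15 adjusted over the 9 genes), adds no separate support. The mean of the 9 genes was 10.3, 10.9 and 10.5 in the epithelium, against 8.99, 8.73 and 9.08 in the mesenchyme, and epithelium B was the highest epithelial array of each of the 9 genes, as its array median of 8.6 was of the 3 epithelial medians.

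Of 6 measured paralogs of these genes, 0 were called higher in the epithelium (limma, and 0 at an unadjusted p under 0.05), 2 were called higher in the mesenchyme and 4 were not called, with a median difference of -0.63. Jam3 encodes JAM-C, an adhesion protein of endothelia and other cells, and read 7.1, 6.9 and 6.7 in the epithelium, against 10.2, 10.0 and 10.2 in the mesenchyme. The groups were far apart, with a difference of -3.23 ± 0.23 (adjusted p = 1.25e-32 by limma over genes), and 1 of its 2 probe sets was called. Pard6g, another Par6 gene, read 8.9, 8.9 and 9.0 in the epithelium, against 11, 10.9 and 10.7 in the mesenchyme, with a difference of -1.93 ± 0.23 (adjusted p = 1.68e-14). Of the 2 probe sets of Pard6g, 1 was called. By the brightest probe sets, the mesenchymal level of Pard6b was thus below its epithelial level, while for Pard6g the mesenchymal level was the higher. Pard6a averaged 8.27 ± 0.31 in the epithelium, against 9.03 ± 0.25 in the mesenchyme, a difference of -0.77 that stayed under 2-fold (adjusted p = 0.0030) and was called when arrays were centred on spike-in controls or weighted (-1.03 in both).

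Jam2, which encodes JAM-B, was not called by its brightest probe set (difference -0.50, adjusted p = 0.0650), but 2 of its 5 probe sets were called higher in the mesenchyme, and the most variable of them differed by -3.10. Cgnl1, which encodes the cingulin relative paracingulin, had a difference of -0.20, with 1 of 5 probe sets called higher in the mesenchyme. Crb1 had a difference of 0.17 and no called probe set. Jaml and Crb2 were not analysed here.

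**Figure D3:**
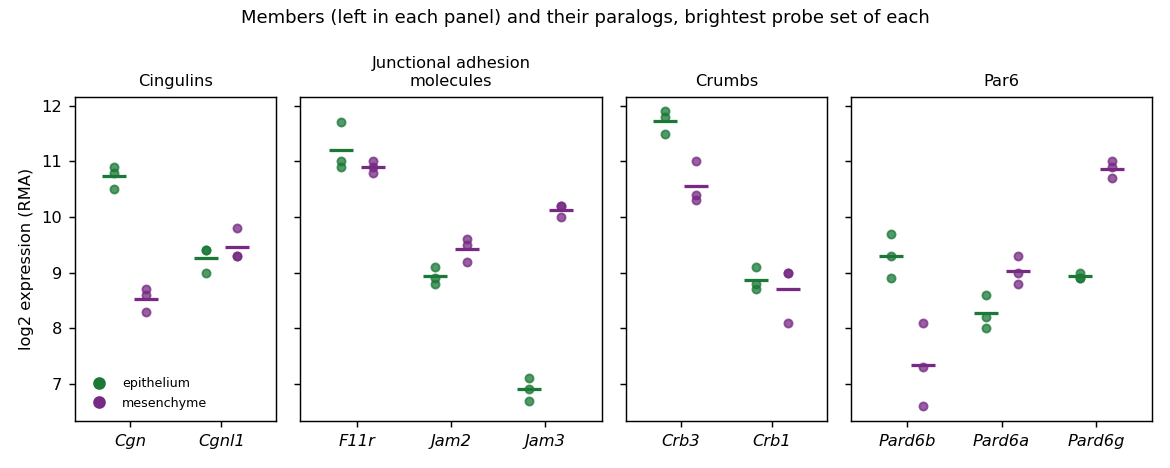
Log2 expression on each array of Cgn, F11r, Crb3 and Pard6b (left in each panel) and of their measured paralogs, by the brightest probe set, with epithelium (green) left of mesenchyme (purple) and bars at the mean of 3 arrays. Jam3 and Pard6g had higher mesenchymal points, opposite to Cgn, Crb3 and Pard6b, and levels are not comparable between different genes.

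The wider set of junction and polarity genes was mixed between the tissues. Of 20 other plaque genes measured, 4 were called in each direction, with a median difference of -0.18. The epithelial group held Patj (1.70, adjusted p = 1.22e-11 by limma), a partner of the Crumbs complex, the angiomotin gene Amot (1.37), Mpp5 (1.03), which encodes Pals1, and Magi3 (1.00). The mesenchymal group held both relatives of angiomotin, Amotl1 (-2.67) and Amotl2 (-1.93), the multi-PDZ scaffold Mpdz (-1.73), which is related to Patj, and the exchange factor gene Arhgef2 (-1.10). The call of Amot ended with array weights (0.96) and with the mean of its probe sets (0.42), and that of Arhgef2 under quantile, loess, median and ribosomal scaling (-0.82 to -0.78). Those of Mpp5 and Magi3 ended under 6 and 5 alternatives, including without epithelium B (0.87 and 0.80), for Mpp5 without mesenchyme B (0.97) and for Magi3 without mesenchyme C (0.85). The calls of Patj, Amotl1, Amotl2 and Mpdz were kept in 18 of 18 alternatives, which leave out the test against a 2-fold difference. Not all of their probe sets were called: 2 of 4 for Patj, 2 of 4 for Mpdz and 2 of 3 for Amotl1, whereas Amotl2 had only 1, which was called. Of the other called plaque genes, Arhgef2 had 3 of 3 probe sets called, Mpp5 2 of 3, and Amot and Magi3 1 of 3 each.

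Of 14 other membrane genes, 4 were called in each direction, with a median of -0.13. Mal2, a MARVEL family protein of apical transport, had the largest difference of the list at 4.67 ± 0.23 (adjusted p = 5.19e-53 by limma) and averaged 10.3 ± 0.46 in the epithelium, against 5.60 ± 0.26 in the mesenchyme. Igsf5, which encodes JAM4 (3.17), the virus receptor gene Cxadr (2.07) and Lsr (1.60), whose product angulin recruits tricellulin to tricellular contacts, were also higher in the epithelium. Esam (-3.47), an adhesion protein of endothelial junctions, Clmp (-3.27), a relative of Cxadr, Jam3 and Bves (-1.07) were higher in the mesenchyme. The Bves call ended under 7 alternatives, among them without epithelium A (-0.90) and without mesenchyme C (-0.97), although 2 of its 2 probe sets were called in the deposited values.

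Of 14 other apical polarity genes, 3 were called higher in the epithelium, 2 higher in the mesenchyme and 9 were not called, with a median of 0.08. The first were Patj, Mpp5 and Prkcz (1.40, adjusted p = 2.20e-08 by limma), which encodes an atypical protein kinase C, and the second Pard6g and Lin7a (-1.10). The Lin7a call ended under 7 alternatives, among them without epithelium C (-0.97) and without mesenchyme A (-0.98), and that of Prkcz with the mean of its probe sets (0.99). Pard3, Prkci and Cdc42, named here after their values were seen because they encode the partners of Par6, were not called by their brightest probe sets (0.10, -0.43 and -0.13), although the most variable probe sets of Pard3 and Cdc42 differed by -1.13 and -1.53. Ezr, which encodes the apical linker ezrin and was also singled out after its values were seen, was not called by its brightest probe set (0.07), while the mean of its probe sets differed by 1.58 and the most variable one by 3.10. Of 15 basolateral polarity genes, Llgl2 was called higher in the epithelium (1.97, adjusted p = 1.12e-14), Dlg5 (-1.23) and Dlg1 (-1.10) were called higher in the mesenchyme, and 12 were not called, with a median of -0.43. Both Dlg calls ended under quantile, loess, median and ribosomal scaling (-0.96 to -0.78 over both genes) and with the mean of the probe sets, and that of Dlg5 also without epithelium A (-0.95). All these counts are to be read against 8.19% and 15.9% of all genes called higher in the epithelium and in the mesenchyme.

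**Figure D4:**
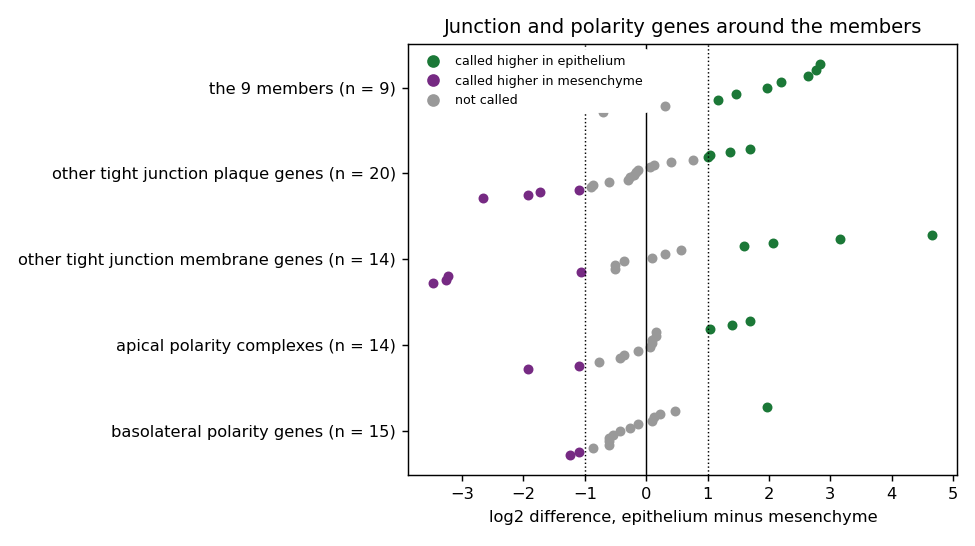
Log2 difference, epithelium minus mesenchyme, of the 9 genes and of 4 lists of other junction and polarity genes, each point a gene by its brightest probe set, with dotted lines at 2-fold. Of the 9 genes 7 lay in the called epithelial range, whereas the lists were spread to both sides with medians from -0.43 to 0.08.

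The genes most like the mean of the 9 across the 6 arrays were found by the root mean square distance between centred profiles. The 5 nearest of all other genes, by their brightest probe sets, were Gfpt1 (0.0515 log2 units), Tmem41b (0.0515), Me1 (0.0527), Lsr (0.0561) and Rbks (0.0590). With the mean of all probe sets of a gene, the difference of Gfpt1 fell from 1.53 to 0.51 and that of Tmem41b from 1.60 to 0.95, and neither was called. Lsr read 11.2, 11.8 and 11.3 in the epithelium, against 9.8, 9.7 and 10.0 in the mesenchyme. Of the 9 genes themselves, each of which is part of that mean, Ocln was nearest to it at 0.111 and Tjp1 farthest at 1.17. The Ocln distance is that of its brightest probe set, 1440220_at, with a difference of 1.47. For the other, 1448873_at, which differed by 4.77, the distance was not computed. These distances are a description over 6 arrays that share tissue and array-wide shifts.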

How the data were processed

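RNA of 3 epithelial and 3 mesenchymal pools was measured on 1-colour arrays, and the labels gave the groups. The authors deposited log2 values, which RMA had summarised per probe set according to the submitters' processing notes; its version, its settings and the step between arrays are not given in the sources used here. They were rounded to 0.1, ranged from 4.6 to 15.2 and carry no detection calls. RMA values near background compress folds. Of 45101 probe sets, 64 controls were set aside. The platform annotation gave 1 symbol for 34945 of the 45037 tested, several for 932 and none for 9160. Symbols were updated through RefSeq gene names, by Entrez identifier for 34741, by symbol for 143 and by synonym for 59, and 2 kept theirs. No coordinates were taken for probe sets.

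Epithelium and mesenchyme were compared with limma 3.58.1 (R 4.3.3), lmFit and eBayes, on the deposited values without further scaling or covariates, with Benjamini-Hochberg adjustment over 45037 probe sets or 18161 genes. Probe set values of the 9 genes carry p-values from the first fit and list genes from the second. Where a gene had several probe sets, the brightest over the 6 arrays stood for it. The fits had 4 residual and 31.7 (probe sets) or 252 (genes) prior degrees of freedom. The p-values rest on the spread between pools selected by RT-PCR. Differences between probe sets and between genes within an array were tested by exact permutation. No scan dates or other batches were given in the labels.

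The members, gene lists, markers and motifs were chosen with earlier results of these data known. Named were all members and paralogs, per list up to 4 called genes of largest difference each way, the 5 genes of nearest profile and the RT-PCR genes. Alternatives were 5 other scalings, a filter on dim probe sets (7 or more on at least 3 arrays), another variance prior, array weights, the letters as blocks, other fold limits, other probe set choices and each array left out.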

Additional observations from a re-analysis of the deposited data

How the results depend on the processing

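The call of higher in the epithelium was kept in 137 of the 140 combinations of the 7 called genes with 20 alternatives. Among these, the alternative without a fold minimum could not end a call. Spike-in centring without mesenchyme B was added after the data were seen. The exceptions were Crb3 under spike-in centring (0.91) and, in the test against a 2-fold difference, Ocln (1.47, adjusted p = 0.143 by limma) and Crb3 (1.17, adjusted p = 1). That test left 7 of the 12 called probe sets, and over all features 1371 probe sets called for the epithelium and 3355 for the mesenchyme, or 841 and 1582 genes, against 2695 and 6976 probe sets, or 1488 and 2893 genes, in the reported comparison. Without a fold minimum the counts were 4839 and 12048 probe sets and 2730 and 5356 genes, and Tjp1 became the 1 probe set and 1 gene of the 9 that was higher in the mesenchyme. Probe sets higher in the epithelium numbered 4100 with equal array medians and 4101 with centring on ribosomal protein genes. In 3 cases the within-array difference changed its sign when all probe sets of a gene were averaged: Ocln to 1.74, Marveld3 to -0.0306 and Pard6b to -0.343, since these genes have probe sets of unequal differences. Cgn 1430329_at also lost its call with spike-in centring (0.74) and array weights (0.75).

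Scaling moved the median difference of all probe sets, -0.17 as deposited, by 0.26 (quantile), 0.19 (loess), 0.30 (equal medians), 0.32 (ribosomal genes) and -0.26 (spike-in controls). The share of called probe sets that were higher in the epithelium was 27.9% as deposited, and 43.2%, 39.3%, 45.5%, 46.3% and 17.3% under these scalings in the same order. For genes the share was 34.0% as deposited, and 47.0%, 44.6%, 50.6%, 51.2% and 22.5%. Spike-in centring without mesenchyme B, an alternative chosen after seeing the data, gave 26.7% of probe sets and 33.1% of genes. Deviations from the tissue means correlated at -0.31, -0.15 and 0.12 between samples of the same letter A, B or C. Samples of different letters gave -0.25 to 0.36. These ranges overlap, so the correlations cannot decide whether the letters pair the samples. With the letters as a replicate block, 12 probe sets and 7 genes of the 9 were still called. Of all probe sets, 2677 were then called for the epithelium and 6902 for the mesenchyme. The adjusted p of Tjp1 in that fit was 0.0757 (probe set) and 0.0494 (gene) by limma. Signal near background, where no detection calls are at hand, limits the size of the Ocln, Jam3 and Mal2 differences.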

Other observations

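The transcription factors known to act on junction genes were also measured. Of 17 such genes, 7 were called for the epithelium and 4 for the mesenchyme, with a median difference of 0.40, against 8.19% and 15.9% of all genes. The 4 largest epithelial differences were those of the zinc finger gene Klf5 (3.77), the nuclear receptor genes Hnf4g (3.27) and Hnf4a (3.00), and the homeobox gene Cdx1 (3.23), each with a standard error of 0.23 to 0.24. Snai2, which encodes the E-box repressor Slug, read 6.0, 5.8 and 6.1 in the epithelium, against 12.0, 11.6 and 11.7 in the mesenchyme. The difference was -5.80 ± 0.23 (adjusted p = 2.52e-69 by limma), with epithelial values at the level of the bacterial controls. Zeb1, another E-box repressor gene, averaged 9.03 ± 0.21 in the epithelium and 11.6 ± 0.12 in the mesenchyme, a difference of -2.60. Zeb2 (-1.30) and Twist2 (-1.20) were called as well, but the Zeb2 call ended under quantile (-0.98) and ribosomal (-0.98) scaling and that of Twist2 under 4 scalings (-0.92 to -0.88). In the deposited values, all 5 probe sets of Zeb2 were called higher in the mesenchyme, against 2 of the 4 of Zeb1. Over the alternatives, the Zeb2 difference reached -5.70. The other 6 of the 17 were not called, and 4 of them are named here after their values were seen because their families bind the motifs searched. These were the Snail gene Snai1 (-0.90) and the Grainyhead-like genes Grhl1 (0.40), Grhl3 (0.37) and Grhl2 (-0.80, adjusted p = 0.00183 by limma). Centring on spike-in controls gave called differences for Snai1 (-1.16) and Grhl2 (-1.06), and the most variable probe set of Grhl2 differed by 0.87. The difference of Snai1 was -1, and called, without mesenchyme C. No relation between these genes and the junction genes was tested.

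Of the RT-PCR genes, Vil1 and Prkg2 differed by 4.70 and 3.20, and Vim, Madcam1 and Actg2 by -6.10, -2.63 and -7.23. Among the remaining markers, 4 of 5 mesothelial genes, 1 of 4 measured genes of enteric neurons and glia and 1 of 3 erythroid genes were called higher in the mesenchyme. Over all genes, 15.9% were. Elavl4 (-4.00) was the called gene of neurons and glia and Alas2 (-1.70) that of erythroid cells. Ret was not called by its brightest probe set (-0.40), but 1 of its 2 probe sets was called higher in the mesenchyme, and the most variable one differed by -2.47. The summed erythroid level was 9.34 to 9.80 on the epithelial and 10.28 to 10.78 on the mesenchymal arrays, and that of neurons and glia was 10.89 to 11.18 on the epithelial and 11.98 to 12.15 on the mesenchymal arrays.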
